A study of Mus musculus with 15 samples.

Results

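The genes of the mitochondrial ribosome were followed in the hippocampus of mice that carried mutant *App*, human *APOE4* or both. They were all protein-coding genes whose symbol starts with Mrpl or Mrps and a digit, with pseudogenes left out. There were 78 of them, 49 Mrpl and 29 Mrps genes, among the 55471 genes of the count table, and they lay on 17 chromosomes. Polyadenylated RNA of whole hippocampi of female mice aged 3 months was sequenced in 15 libraries, 3 for each of 5 groups in 2 batches. In batch 1 were Wild-type (WT) mice of the strain C57BL/6JInv, mice of genotype AppNL-G-F/NL-G-F (APP-TKI), and mice of that genotype that were Apoe4+/wt as well (DM). Batch 2 held WT mice of its own and ApoE4+/wt mice (ApoE4). APP-TKI and DM mice were thus homozygous for mutations knocked in at the mouse *App* locus, which keep its own promoter, and DM and ApoE4 mice had human *APOE4* at a single *Apoe* allele. DM and ApoE4 mice were in different batches, so each was set against mice of its own batch. Each library came from a different mouse. Total counts were 32754717 to 44630808 per library.

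Mitochondria keep a small genome that encodes a few subunits of the respiratory chain, and a ribosome of their own translates these. All proteins of this ribosome are encoded in the nucleus, made in the cytosol and imported, and they join RNAs transcribed from mitochondrial DNA to build a large subunit, where peptide bonds form, and a small subunit, where the mRNA is read. Some of the proteins have bacterial counterparts and others were gained by mitochondria. Neurons depend on the respiratory chain for much of their ATP, and inherited defects of several of these proteins cause brain disease.

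By structure rather than by symbol, 51 of the 78 genes encode proteins of the large subunit and 26 of the small subunit. *Mrps18a* and *Mrps30* are named for the small subunit, but their proteins sit in the large one. *Mrps36* encodes a component of the 2-oxoglutarate dehydrogenase complex, an enzyme of the citric acid cycle, and is no ribosomal gene in the strict sense. Of the 2 subunits, 30 large-subunit and 16 small-subunit genes have bacterial counterparts, and 21 and 10 are specific to mitochondria.

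The promoters of these genes often held short sequences that are known to bind factors driving genes of the respiratory chain. RefSeq promoters on GRCm38.p6, from 250 bases before to 50 bases after a start, were given for 69 of the 78 genes and for 16513 genes in all, and were searched on both strands. CCGGAAG, the core of ETS family sites such as those of GABP, was found for 26 of the 69 genes (37.7%) and 13.4% of all genes. AAGATGGC, part of the YY1 site, was found for 12 genes (17.4% against 3.64%) and GCATGCGC, part of the NRF1 site, for 8 genes (11.6% against 4.11%). GGGCGG, the GC box of SP family factors, was about as frequent here (34 genes, 49.3%) as in all promoters (51.0%). At least 1 of the 4 was present for 52 genes (75.4% against 57.3%). Matches to the ETS core and the GC box overlapped in the promoters of 2 genes, *Mrpl17* and *Mrps16*, and no other pair of different motifs overlapped. The shares over all promoters include genes too low in these libraries to be tested, and shares over the tested genes alone were not computed. A match is a description of letters and does not show that a factor was bound.

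The promoters of 5 genes follow in lower case, with the matches in capitals. They belong to *Mrps24* and *Mrps18c*, which had the smallest p in DM against APP-TKI mice, to *Mrpl27*, which had the smallest p in ApoE4 against WT mice, and to *Mrpl39* and *Mrps12*, which lie near *App* and near *Apoe*. The first has GC boxes next to each other and a YY1 match after the start, the second an ETS match and a GC box, the third an ETS match, the fourth NRF1 matches on both strands that share most of their letters, and the fifth matches to YY1, the GC box and ETS.
Mrps24 promoter, chr11:5707652-5707951, minus strand of GRCm38.p6: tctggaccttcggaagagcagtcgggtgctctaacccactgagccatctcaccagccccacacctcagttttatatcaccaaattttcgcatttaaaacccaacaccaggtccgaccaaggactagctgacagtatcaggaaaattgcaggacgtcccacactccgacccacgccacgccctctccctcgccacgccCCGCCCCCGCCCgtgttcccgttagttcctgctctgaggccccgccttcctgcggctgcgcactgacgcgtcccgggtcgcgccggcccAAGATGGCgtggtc
Mrps18c promoter, chr5:100798509-100798808, plus strand of GRCm38.p6: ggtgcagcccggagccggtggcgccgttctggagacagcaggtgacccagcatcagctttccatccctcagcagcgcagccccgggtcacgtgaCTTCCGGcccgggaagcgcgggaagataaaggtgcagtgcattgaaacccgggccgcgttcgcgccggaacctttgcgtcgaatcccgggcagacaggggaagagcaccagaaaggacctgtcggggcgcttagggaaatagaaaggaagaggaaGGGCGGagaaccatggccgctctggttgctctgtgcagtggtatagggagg
Mrpl27 promoter, chr11:94653541-94653840, plus strand of GRCm38.p6: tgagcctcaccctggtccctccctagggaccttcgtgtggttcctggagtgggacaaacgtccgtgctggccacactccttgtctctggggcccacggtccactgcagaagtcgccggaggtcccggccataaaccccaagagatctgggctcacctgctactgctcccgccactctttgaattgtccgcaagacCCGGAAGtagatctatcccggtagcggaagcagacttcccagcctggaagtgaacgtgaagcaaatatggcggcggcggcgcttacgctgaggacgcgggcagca
Mrpl39 promoter, chr16:84735195-84735494, minus strand of GRCm38.p6: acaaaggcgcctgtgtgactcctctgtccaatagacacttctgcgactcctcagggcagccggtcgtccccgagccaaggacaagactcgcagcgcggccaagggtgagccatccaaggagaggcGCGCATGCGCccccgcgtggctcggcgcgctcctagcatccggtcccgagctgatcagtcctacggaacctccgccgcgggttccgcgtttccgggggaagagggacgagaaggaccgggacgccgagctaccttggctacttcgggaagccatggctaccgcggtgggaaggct
Mrps12 promoter, chr7:28741772-28742071, minus strand of GRCm38.p6: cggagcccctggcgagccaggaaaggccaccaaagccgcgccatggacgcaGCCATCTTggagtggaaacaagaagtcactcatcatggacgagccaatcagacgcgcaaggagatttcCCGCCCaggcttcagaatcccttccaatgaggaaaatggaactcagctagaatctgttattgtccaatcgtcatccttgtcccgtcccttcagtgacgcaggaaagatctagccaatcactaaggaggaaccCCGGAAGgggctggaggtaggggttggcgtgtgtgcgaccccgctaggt

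A start site of another protein-coding gene on the opposite strand lay within 1000 bases upstream of 18 of the 78 genes (23.1%), against 6.77% of 21974 protein-coding genes in the annotation. That background, too, includes genes too low to be tested, and the share over the tested genes alone was not computed. Such head-to-head pairs can share a promoter. The pairs were formed with genes of varied function. *Mrps12*, which encodes a protein of the decoding centre, starts 172 bases from *Sars2*, the mitochondrial seryl-tRNA synthetase. *Mrps18c* starts 29 bases from the helicase gene *Helq*, and *Mrpl49* starts 59 bases from *Fau*, which encodes a cytosolic ribosomal protein fused to a ubiquitin-like protein.

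For the filter, CPM are counts relative to the unscaled library total. Of the 78 genes, 77 passed the filter of more than 1 CPM in at least 3 libraries and were tested. *Mrpl53*, which encodes a protein at the base of the stalk of the large subunit, did not. It had 0 counts in all 15 libraries, which allows at most 0.0916 CPM of the unscaled total in the shallowest library (3 counts, counting error only). Its locus on chromosome 6 of GRCm38 (83109040 to 83109939) shares 695 of its 790 exon bases with *Gm42688*, a predicted protein-coding gene on the same strand with 34 to 83 counts. Whether the overlap accounts for the empty row was not tested. Exons of 33 of the 78 genes overlapped those of another gene, on the same strand for 8 and on the opposite strand for 28, and 45 genes had no such overlap. Whether the authors counted by strand is not stated in the sources used here, and reads in overlaps are therefore uncertain. *Mrps11* and *Mrpl46*, a small-subunit and a large-subunit gene, lie head to head on opposite strands of chromosome 7 and share 173 exon bases.

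Levels are given as FPKM, which is CPM per kb of merged exons, and CPM from here on are relative to the scaled library total. The tested genes had a median of 9.92 FPKM (mean of 15 libraries per gene) and ranged 47.7-fold. The 5 highest were *Mrps21*, of the small subunit, at 38.9 ± 5.16 FPKM (SD, n = 15), *Mrpl41*, specific to mitochondria, at 38.0 ± 3.47, *Mrpl27* at 30.3 ± 2.704, *Mrpl12*, the stalk protein that contacts translation factors, at 26.9 ± 2.35, and *Mrpl10*, which anchors the stalk, at 25.02 ± 0.642. The 5 lowest were *Mrps30* at 2.99 ± 0.131, *Mrps10* at 2.87 ± 0.346, *Mrpl15* at 2.80 ± 0.177, *Mrps35* at 1.85 ± 0.113 and *Mrpl33* at 0.816 ± 0.0940 FPKM (SD, n = 15). The order rested on the length used, since long untranslated or retained exons enter merged exons. Per kb of the median protein-coding transcript, a choice made after seeing the data, the levels ranged 18.9-fold and *Mrpl33* stood at 12.5 FPKM. Then *Mrpl48* was highest at 92.2 FPKM and *Mrpl1* lowest at 4.89 FPKM. Only 1 of the 5 highest (*Mrps21*) and 1 of the 5 lowest (*Mrps30*) were the same by both lengths. Large-subunit genes had a higher median than small-subunit genes by both lengths, at 11.2 against 8.27 FPKM by merged exons and 22.4 against 17.2 FPKM by transcripts.

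**Figure D1:**
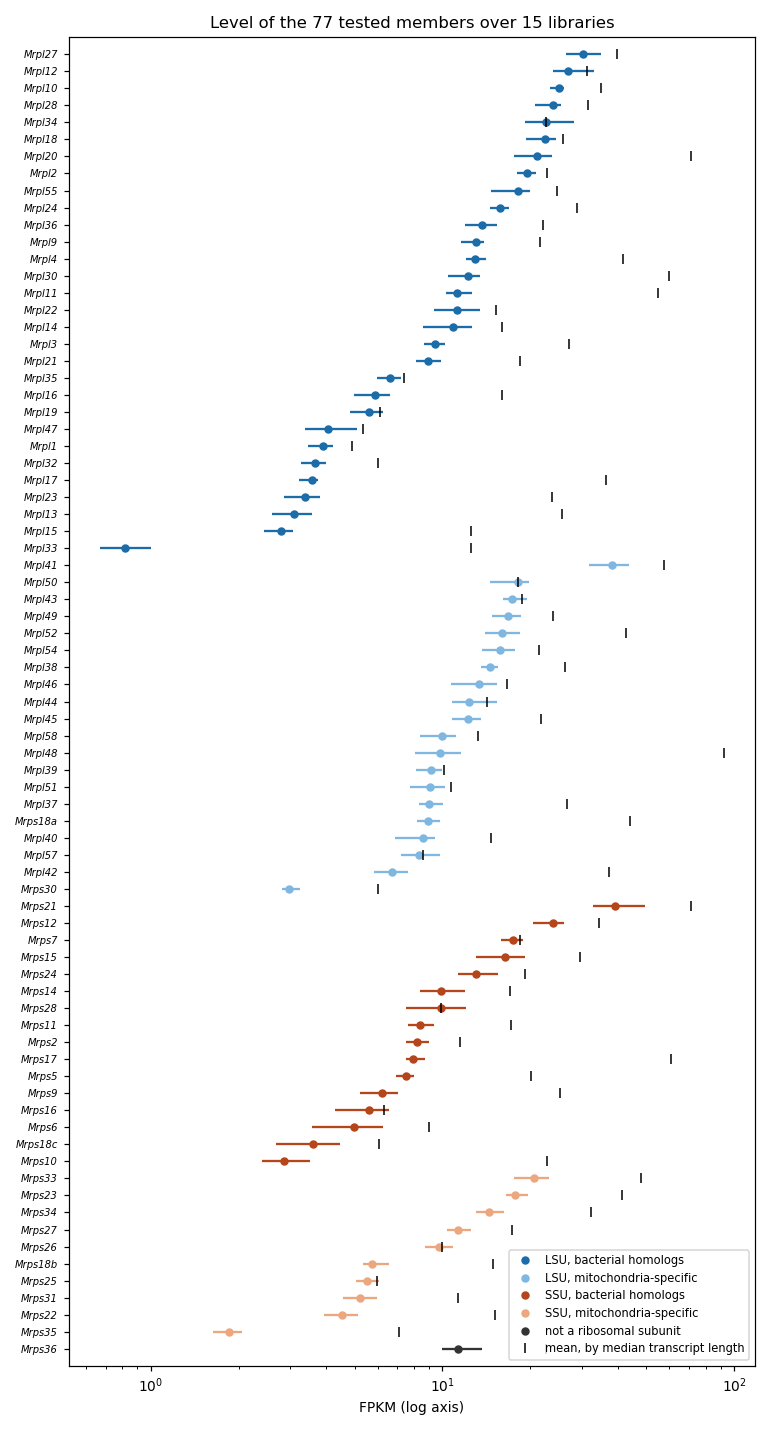
Level of each of the 77 tested genes in FPKM on a log axis. Points are means of 15 libraries by merged exon length, lines run from the lowest to the highest library, and black ticks are the means by median transcript length. The ticks of *Mrpl48* (92.2) and *Mrpl33* (12.5) lie far to the right of their points.

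Levels varied little over the 15 libraries. The coefficient of variation had a median of 7.30% over the 77 genes, against 9.32% over the 9433 tested genes in the same range of CPM (3.87 to 79.8). *Mrpl10* varied least (2.57%), and *Mrps6* (15.8%) and *Mrps18c* (14.8%), both small-subunit genes of low level, varied most. *Mrps18c* rests on 111 to 185 counts per library. Summed over the 77 genes, the libraries had 68347 to 89350 counts, 0.191% to 0.217% of their totals.

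In some libraries most of the 77 genes moved together. Others were split, with 33 of the 77 above the batch mean in WT replicate 1 and 36 in APP-TKI replicate 1 of batch 1. On the log2 CPM scale, the median gene lay 0.078 below the mean of its batch in APP-TKI replicate 2 and 0.075 below it in ApoE4 replicate 3, and only 13 and 10 of the 77 genes were above the batch mean there. It lay 0.056 above the mean in DM replicate 3, 0.042 above in DM replicate 2 and 0.068 above in WT replicate 3 of batch 2. The median of all tested genes stayed between -0.014 and 0.024 in every library. Nuclear noncoding RNA set 4 libraries of batch 1 apart, replicate 1 of each of its groups and replicate 2 of APP-TKI. A list of 10 such RNAs, among them *Malat1* and *Meg3*, took 1.39% to 1.58% of their counts and 0.938% to 1.08% in the other 5 libraries. The median mitoribosomal gene was at -0.0050, -0.0057, -0.078 and -0.021 in those 4 and between 0.011 and 0.056 in the other 5, with no overlap. In batch 2 the share was 0.692% to 0.840% in all libraries, and ApoE4 replicate 3 was not set apart by it.

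**Figure D2:**
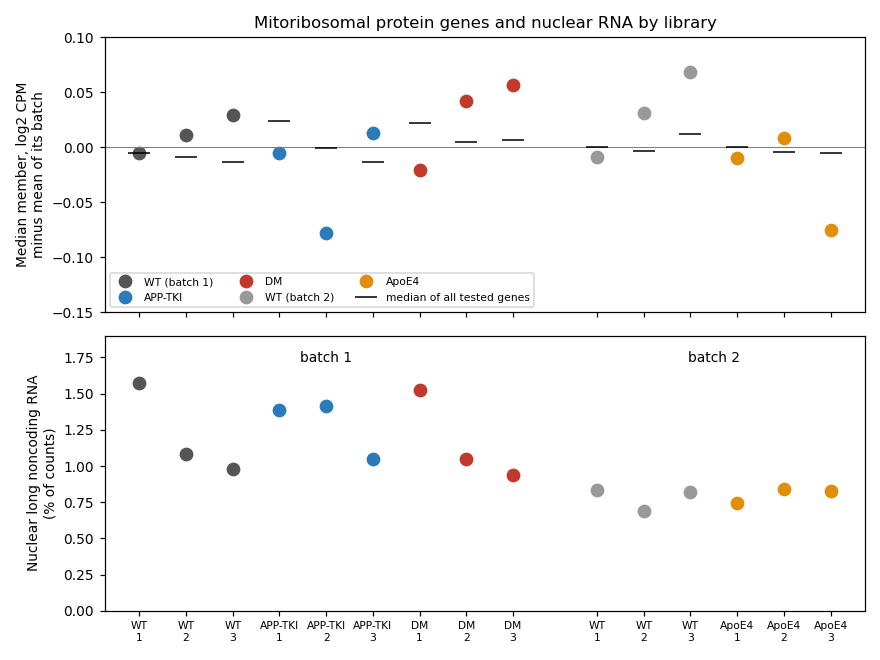
Upper panel, the median over 77 mitoribosomal genes of log2 CPM minus the mean of its batch, for each library, with the same median over all tested genes as a black dash. Lower panel, the percentage of counts in 10 nuclear long noncoding RNAs. The lowest points are APP-TKI replicate 2 (-0.078) and ApoE4 replicate 3 (-0.075), and the 4 libraries of batch 1 with 1.39% or more of nuclear RNA lie below the other 5 of that batch.

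Markers of the hippocampus were present in every library. A list of 10 markers of its excitatory neurons summed to 2097 to 2607 CPM, and *Prox1*, a transcription factor of dentate granule cells, had 79.8 to 112 CPM. Some libraries also held RNA of tissue next to the hippocampus. Choroid plexus markers summed to 1591 CPM in WT replicate 3 of batch 2 and to 1901 CPM in ApoE4 replicate 1, against 24.2 to 99.1 CPM in the other 13. Striatum markers summed to 453 CPM in ApoE4 replicate 3 and 42.1 to 81.5 CPM elsewhere, and thalamus markers to 404 CPM in WT replicate 3 of batch 2 and 76.3 to 174 CPM elsewhere. No marker of these lists was at 0 counts in all libraries. In bulk RNA, fewer cells of a type and less RNA per cell cannot be told apart.

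DM mice were first compared with WT mice of batch 1, which asks what both mutations together did. None of the 77 genes passed the test of edgeR at an adjusted p under 0.1 over all 16171 genes, where 2 genes passed (0.0124%) and 11 passed with the replicate number blocked. The genes split evenly, with 42 higher and 35 lower in DM mice and a median log2 fold change of 0.0050, against 0.012 over all tested genes. At an unadjusted p under 0.05, 1 gene was higher (background 3.69%) and 0 were lower (background 0.866%), while DESeq2 and the robust likelihood ratio test had 0 in either direction. DM libraries lay wholly above WT libraries for 6 genes (background 7.29%) and wholly below for 0 (background 3.14%).

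Large and small subunit genes were placed a little differently. Of 50 large-subunit genes 30 were higher, with a median of 0.019, and of 26 small-subunit genes 11 were higher, with a median of -0.022. Among the 10 small-subunit genes specific to mitochondria, 8 were lower, with a median of -0.055. The difference between subunits was not tested. The genes with the smallest p among those lower were *Mrps18b* at -0.11 (standard error, SE, 0.086), *Mrps6* at -0.15 (SE 0.13), *Mrps34* at -0.082 (SE 0.086) and the large-subunit gene *Mrpl42* at -0.099 (SE 0.082), and none of them was apart from WT in all libraries.

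*Mrpl13*, a large-subunit protein with a bacterial counterpart, had the smallest p in DM mice. It had 26.3, 28.5 and 27.7 CPM in DM replicates 1 to 3, 24.4, 25.2 and 24.1 in WT and 25.5, 23.0 and 24.6 in APP-TKI mice. All 3 DM libraries were thus above the other 6 of the batch. The log2 fold change from WT mice was 0.16 (SE 0.069, with an edgeR adjusted p = 0.9999).

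*Mrps18c*, on chromosome 5 (100798627 to 100804471), encodes the protein that takes the place of bacterial S18 in the small subunit. It had 4.79, 4.62 and 4.80 CPM in DM mice, 3.75, 4.28 and 3.65 in WT and 3.77, 3.33 and 3.63 in APP-TKI mice. The DM libraries again stood above the other 6, by 0.28 on the log2 scale over WT mice (SE 0.13, edgeR adjusted p = 0.9999). In batch 2 the gene had 3.35, 3.96 and 4.31 CPM in WT and 3.39, 2.88 and 3.59 CPM in ApoE4 mice, and these groups overlapped. Its exons share 250 bases with *Gm43511*, an unverified transcript on the same strand with 13 to 36 counts. The paralog *Mrps18a*, whose protein sits in the large subunit, was at 0.093 (SE 0.065) in DM against WT mice, and *Mrps18b*, another small-subunit protein, was on the other side of 0, so that the 3 paralogs were not placed alike.

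*Mrps24*, whose protein lies at the entry of the mRNA channel, had 20.5, 21.1 and 22.7 CPM in DM mice, 20.2, 19.4 and 19.0 in WT and 18.5, 17.4 and 17.5 in APP-TKI mice. The 3 groups did not overlap and stood in the order DM, WT, APP-TKI. Its log2 fold change was 0.13 (SE 0.074) in DM and -0.13 (SE 0.075) in APP-TKI mice against WT, and neither had an unadjusted p under 0.05. *Mrps24* shares 226 exon bases with *Urgcp* on the same strand, which had 1885 to 2775 counts against 595 to 876 of its own.

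The other genes whose DM libraries were all above WT were *Mrpl28*, *Mrpl55* of the central protuberance, where the large subunit meets tRNA, and *Mrpl52*. Of these, *Mrpl55* and *Mrpl52* were picked after their values were seen. *Mrpl28* was the only gene of the 77 that lay wholly above WT in both mutants, and none lay wholly below in both. The share of all tested genes apart from WT in both mutants was not counted, so these numbers have no background. *Mrpl28* had 30.9, 33.4 and 32.4 CPM in WT, 34.7, 34.0 and 34.4 in APP-TKI and 34.5, 35.3 and 33.8 in DM mice. Its log2 fold changes were 0.091 (SE 0.060) in APP-TKI and 0.098 (SE 0.060) in DM mice, which share the WT libraries.

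Markers of other cells moved in this comparison. All 5 ependymal and all 5 endothelial markers were higher in DM mice, with sums of 23.2 to 31.3 CPM against 10.8 to 14.6 in WT for ependymal and 36.8 to 49.7 CPM against 30.2 to 31.5 in WT for endothelial markers. All 5 oligodendrocyte markers (median 0.13) and all 3 pituitary markers (median 3.21, sums of 3.01 CPM or less in DM mice) were higher too. Of 10 markers of hippocampal excitatory neurons, 8 were lower (median -0.10). The part of these markers in the values above was not tested.

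**Figure D3:**
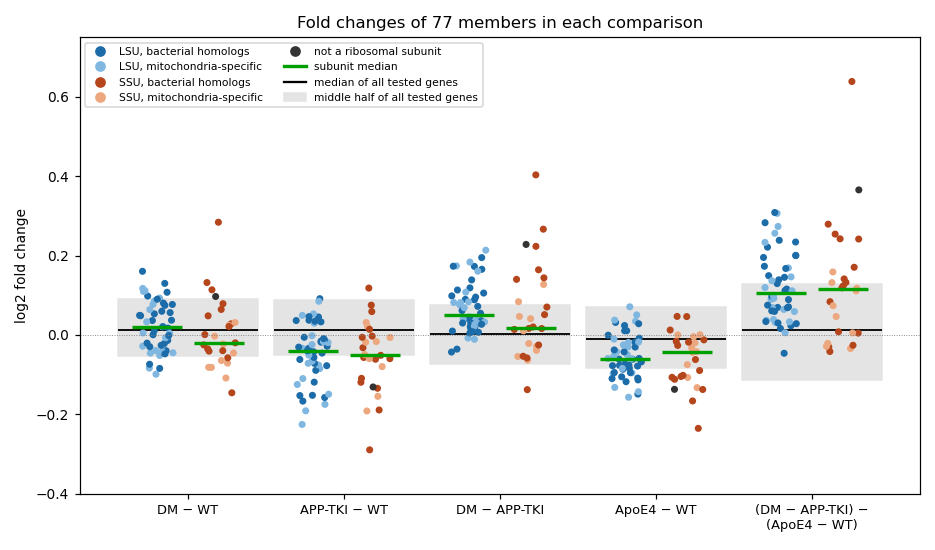
Log2 fold change of each of the 77 genes in the 5 comparisons, with large-subunit genes (blue) to the left and small-subunit genes (orange) and *Mrps36* (black) to the right in each. Green lines are the medians of the subunits, black lines the median of all 16171 tested genes and grey boxes span their middle 50%. Most points lie below the black line in APP-TKI and ApoE4 mice and above it in DM against APP-TKI mice.

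APP-TKI mice against WT mice addressed the mutations of *App* alone. None of the 77 genes passed by the quasi-likelihood test, where 1 gene passed among all tested (0.00618%). More of the genes were lower, 60 of 77, with a median log2 fold change of -0.043, while 44.5% of all tested genes were lower and their median was 0.013. At an unadjusted p under 0.05, 2 genes were lower (background 1.37%) and 0 higher (background 2.19%). DESeq2 had 3 lower and the robust likelihood ratio test 4, where they had 501 and 742 of all genes in either direction against 576 for the main test. APP-TKI libraries lay wholly below WT for 6 genes (background 3.56%) and wholly above for 2 (background 4.71%). Both subunits were placed alike, with 39 of 50 large-subunit genes lower (median -0.040) and 20 of 26 small-subunit genes lower (median -0.051).

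The shift rested in part on APP-TKI replicate 2, without which the median was -0.016 and 58.4% of the genes were lower. Without the 4 libraries rich in nuclear noncoding RNA, left out after seeing the data, the median was -0.015, with 61.0% lower, and 1 APP-TKI library remained. Against WT mice all 5 endothelial markers were lower (median -0.17), and all 5 ependymal (0.47), all 4 tested choroid plexus (0.62) and all 5 oligodendrocyte markers (0.069) were higher in APP-TKI mice, and their part was not tested. With the share of these RNAs as a covariate the median was -0.033.

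*Mrpl50*, a large-subunit gene specific to mitochondria, had the smallest p, with 30.7, 34.2 and 39.0 CPM in APP-TKI and 39.1, 41.8 and 40.7 CPM in WT mice. The groups did not overlap, but APP-TKI replicate 3 was at the lower edge of WT. The log2 fold change was -0.23 (SE 0.085, edgeR adjusted p = 0.9998). It was -0.15 without APP-TKI replicate 1 and -0.082 without the 4 libraries rich in nuclear noncoding RNA. *Mrpl20*, whose bacterial counterpart is needed early in assembly of the large subunit, had 34.6, 32.3 and 33.7 CPM in APP-TKI and 34.5, 38.8 and 39.6 CPM in WT mice. Its groups overlapped through WT replicate 1, and the log2 fold change was -0.17 (SE 0.070).

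The small-subunit genes at the ends were *Mrps6* and *Mrps9*. *Mrps6* was at -0.29 (SE 0.13), the lowest of all 77, with overlapping groups, and at -0.56 without the 4 libraries rich in nuclear noncoding RNA. *Mrps9*, whose bacterial counterpart reaches towards the tRNA that holds the growing chain, had 40.6, 39.1 and 39.8 CPM in APP-TKI, 38.6, 36.1 and 35.5 in WT and 38.6, 35.1 and 34.9 in DM mice. Its APP-TKI libraries were above all others of the batch, at log2 0.12 (SE 0.066) over WT mice. *Mrps9* thus ran against the majority. Next among the higher genes were *Mrpl28*, *Mrpl37* at 0.085 (SE 0.077) and *Mrps15* at 0.075 (SE 0.078), and *Mrpl42* was among the lower at -0.17 (SE 0.082).

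DM mice against APP-TKI mice asked what *APOE4* added to the *App* mutations. None of the 77 genes passed by edgeR, and none of all tested genes did (0%). Here 64 of 77 genes were higher in DM mice, with a median log2 fold change of 0.044, against 0.0012 over all genes, of which 49.6% were lower. At an unadjusted p under 0.05, 6 genes were higher (background 2.83%) and 0 lower (background 0.946%). DESeq2 had 5 and the robust likelihood ratio test 7 higher at that threshold, where they had 515 and 898 of all genes in either direction against 611 for the main test, and neither had a gene of the 77 that passed adjusted. DM libraries lay wholly above APP-TKI libraries for 8 genes (background 5.03%) and wholly below for 1 (background 2.9%). The APP-TKI libraries are also those of the previous comparison, and the low level of APP-TKI replicate 2 enters both. Without it, the median was 0.025 with 29.9% of the genes lower, and without the 4 libraries rich in nuclear RNA it was 0.038 with 35.1% lower.

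Of 50 large-subunit genes 46 were higher (median 0.050), and of 26 small-subunit genes 17 were (median 0.018). The 6 genes with the smallest p came from both subunits. *Mrps24*, with DM libraries from 20.5 CPM and APP-TKI libraries up to 18.5 CPM, was at log2 0.27 (SE 0.074, edgeR adjusted p = 0.987). *Mrps18c* was at 0.40 (SE 0.13), which is 1.32-fold and the largest of the 77 genes. *Mrpl13* was at 0.17 (SE 0.069). *Mrps21* had 29.7, 34.5 and 36.5 CPM in DM and 26.4, 27.8 and 31.9 CPM in APP-TKI mice, which overlapped, at 0.22 (SE 0.090). *Mrpl20* and *Mrpl57*, taken after their values were seen, were at 0.17 and 0.21.

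*Mrps9* was the gene whose DM libraries were all below APP-TKI libraries, at -0.14 (SE 0.065). *Mrps26*, *Mrps34* and *Mrps15*, next among the lower, were at -0.054, -0.064 and -0.054, each less than its standard error. *Mrpl22*, whose protein lines the tunnel through which the new chain leaves, had 11.9 CPM or more in all DM libraries and 11.1 CPM or less in all APP-TKI libraries, at 0.19 (SE 0.0997). WT replicate 2 of the batch, at 10.6 CPM, was within the APP-TKI range. In this comparison, as in the first, endothelial markers were higher (5 of 5, 26.8 to 30.1 CPM in APP-TKI mice), as were ependymal markers (5 of 5, 8.95 to 24.6 CPM in APP-TKI mice), and 8 of 10 nuclear noncoding RNAs were lower (median -0.12). Their part was not tested beyond the values given without the 4 libraries.

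**Figure D4:**
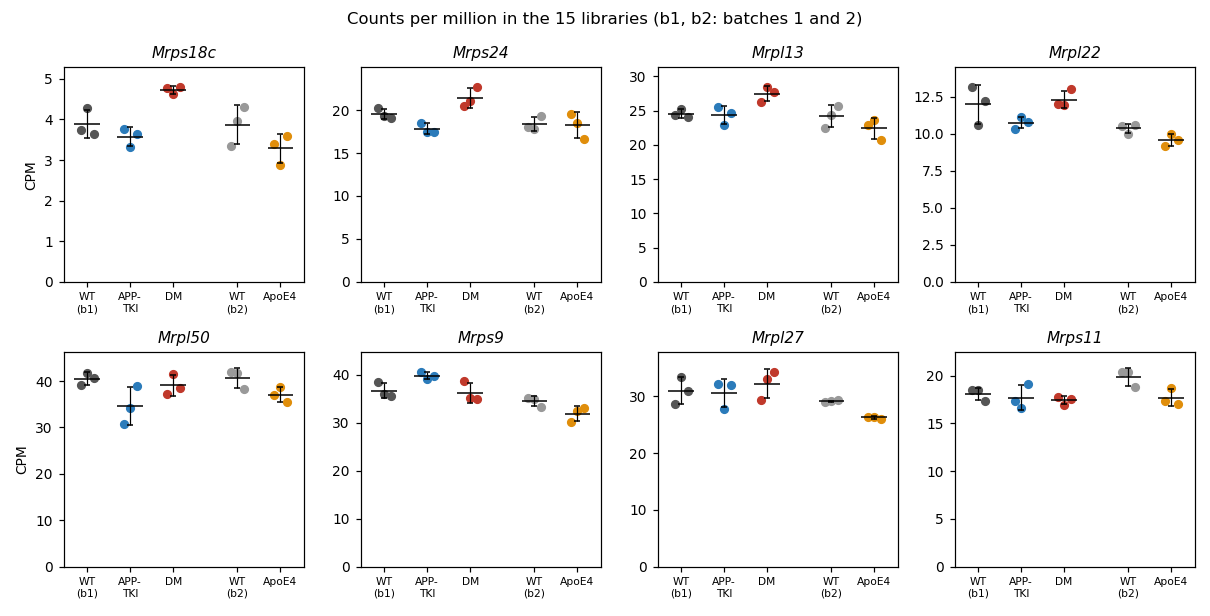
CPM of 8 genes in each library, with group means (bars) and SDs (whiskers, n = 3), axes from 0. DM libraries stand highest in batch 1 for *Mrps18c*, *Mrps24* and *Mrpl13*, and ApoE4 libraries stand below WT of batch 2 for *Mrpl22*, *Mrps9*, *Mrpl27* and *Mrps11*.

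ApoE4 mice against WT mice of batch 2 addressed *APOE4* alone. None of the 77 genes passed by the test of edgeR, nor did any tested gene (0%). The genes were mostly lower, 63 of 77 (81.8%), with a median log2 fold change of -0.059 against -0.011 over all genes, of which 54.1% were lower. At an unadjusted p under 0.05, 2 were lower (background 2.76%) and 0 higher (background 3.23%). DESeq2 had 1 and the robust likelihood ratio test 0 lower at that threshold. ApoE4 libraries lay wholly below WT libraries for 12 genes (background 6.79%) and wholly above for 0 (background 5.39%). Of large-subunit genes 41 of 50 were lower and of small-subunit genes 21 of 26, and 7 of 8 genes of the central protuberance were. *Mrps18c* had the lowest value of the 77 genes, -0.24 (SE 0.15), with overlapping groups.

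The size of the shift depended on a few libraries, and its sign was kept in all 6 fits that left out a single library. Without ApoE4 replicate 3, the library with striatum markers, the median was -0.021 with 67.5% lower. Without that library and the pair with choroid plexus markers (WT replicate 3 and ApoE4 replicate 1), chosen after seeing the data, it was 0.00018 with 49.4% lower, from 2 WT libraries and 1 ApoE4 library. In ApoE4 against WT mice all 5 striatum and all 5 ependymal markers were higher (medians 2.00 and 0.59). All 5 thalamus and all 5 endothelial markers were lower (medians -1.16 and -0.14). Thalamus sums were 78.4, 142 and 404 CPM in WT replicates 1 to 3 and 174, 118 and 131 CPM in ApoE4 replicates. Striatum sums were 55.9, 61.4 and 77.7 CPM in WT and 81.5, 59.9 and 453 CPM in ApoE4 mice. The groups overlapped in both lists, each with 1 library far above the rest. All 3 pituitary markers were lower too, with sums of 7.88 to 23.0 CPM in WT and 1.00 to 3.01 CPM in ApoE4 mice.

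*Mrpl27*, a large-subunit protein whose bacterial counterpart reaches towards the site of peptide bond formation, had the smallest p. It had 26.4, 26.4 and 26.1 CPM in ApoE4 and 29.1, 29.1 and 29.3 CPM in WT mice. The groups did not overlap, at a log2 fold change of -0.15 (SE 0.047, edgeR adjusted p = 0.761). Over all alternatives it stayed between -0.15 and -0.13. In batch 1 the same gene spread from 27.8 to 34.3 CPM with all 3 groups overlapping.

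*Mrps11*, a platform protein of the small subunit, had 17.4, 18.7 and 17.0 CPM in ApoE4 and 20.4, 20.4 and 18.8 CPM in WT mice, at -0.17 (SE 0.069). Its overlapping neighbour *Mrpl46* had 17.9, 16.3 and 15.1 against 16.4, 16.9 and 19.1 CPM, and those groups overlapped. *Mrpl50* and *Mrpl30* were next, at -0.13 (SE 0.060) and -0.12 (SE 0.057). Among the highest, *Mrpl40*, *Mrps17*, *Mrps30* and *Mrps2* were at 0.071, 0.047, 0.050 and 0.046, with standard errors of 0.066, 0.047, 0.064 and 0.060.

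The last comparison set the effect of *APOE4* on mutant *App* (DM minus APP-TKI) against that on normal *App* (ApoE4 minus WT) in a fit of all 15 libraries, where a shift common to a batch cancels. None of the 77 genes passed by edgeR and 0% of all tested genes did. The difference was positive for 70 of 77 genes, with a median of 0.11 on the log2 scale against 0.012 over all genes, of which 47.4% were negative. At an unadjusted p under 0.05, 9 genes were positive (background 4.06%) and 0 negative (background 2.79%). DESeq2 had 8 and the robust likelihood ratio test 10, of 1060 and 1443 genes in either direction against 1107 for the main test. Large-subunit genes were positive in 49 of 50 cases (median 0.11), with *Mrpl24* the exception, and small-subunit genes in 20 of 26 (median 0.11). Without ApoE4 replicate 3 the median was 0.068, and with the nuclear RNA share as a covariate 0.092. Markers differed in the same fit, with all 5 endothelial (median 0.80), 4 of 5 thalamus (1.42) and all 3 pituitary markers (4.32) positive. All 5 striatum markers were negative (-1.78). The thalamus and striatum values include the 1 library of batch 2 far above the rest in each list, WT replicate 3 (404 CPM) and ApoE4 replicate 3 (453 CPM). The part of these markers was not tested.

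*Mrps18c* had the largest difference, 0.64 (SE 0.19, edgeR adjusted p = 0.634). By p, the next were *Mrpl13* at 0.28 (SE 0.099), *Mrpl50* at 0.31 (SE 0.11) and *Mrps24* at 0.28 (SE 0.10). *Mrps36*, the dehydrogenase component, was at 0.37 (SE 0.14), from 0.23 (SE 0.11) in DM against APP-TKI and -0.14 (SE 0.068) in ApoE4 against WT mice. *Mrps30*, the large-subunit gene with a small-subunit name, was at 0.031 (SE 0.090). *Mrpl22* was higher in every DM than in every APP-TKI library and lower in every ApoE4 than in every WT library (9.21, 9.98 and 9.56 against 10.52, 10.02 and 10.57 CPM). Its difference was 0.31 (SE 0.12, edgeR adjusted p = 0.719). The lowest genes were *Mrpl24*, *Mrps10*, *Mrps26* and *Mrps2*, from -0.046 to -0.030, all within their standard errors.

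The 3 genes within 10 Mb of *App* or *Apoe* on the same chromosome were read singly. *Mrpl39*, a large-subunit gene on chromosome 16 (84717576 to 84735742), lies 213.9 kb from *App*. It had 21.6, 25.2 and 24.3 CPM in WT, 23.4, 20.5 and 23.5 in APP-TKI and 24.7, 23.3 and 22.7 in DM mice, with overlapping groups. Its log2 fold changes from WT were -0.076 (SE 0.084) in APP-TKI and -0.0073 (SE 0.084) in DM mice.

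*Mrps6*, 6884.5 kb from *App* on the same chromosome (92058270 to 92112227), shares 305 exon bases with the inositol transporter gene *Slc5a3* on the same strand, which had 1260 to 2344 counts against 197 to 385 of its own. It had 6.60, 7.94 and 8.18 CPM in WT, 6.96, 6.17 and 5.46 in APP-TKI and 6.21, 7.19 and 7.15 in DM mice, and 7.75 to 9.55 CPM in batch 2. The log2 fold changes were -0.29 (SE 0.13) and -0.15 (SE 0.13), and all 3 groups overlapped.

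*Mrps12*, 9040.5 kb from *Apoe* on chromosome 7 (28739641 to 28741820), had 25.8, 26.8 and 25.5 CPM in WT of batch 2 and 25.3, 26.0 and 21.2 CPM in ApoE4 mice. Its log2 fold change was -0.11 (SE 0.084) in ApoE4 mice, or -0.020 without ApoE4 replicate 3, and 0.016 (SE 0.080) in DM against APP-TKI mice. Neither difference was larger than the spread between libraries.

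Lists of other genes of mitochondrial translation were read beside these. Of 5 ribosomal proteins under other names (*Dap3*, *Chchd1*, *Aurkaip1*, *Ptcd3* and *Gadd45gip1*), all 5 were lower in ApoE4 mice, with a median of -0.087. Of all tested genes 54.1% were lower there. *Aurkaip1* had the smallest p in ApoE4 mice, at -0.11 (SE 0.063). Against WT, 3 of the 5 were lower in DM mice (median -0.0066) and 3 in APP-TKI mice (median -0.028). In DM against APP-TKI mice 2 were lower (median 0.062), and 2 were negative in the difference of effects (median 0.15). Of 24 assembly factors of the ribosome, 13 were lower in APP-TKI, 16 lower in DM and 15 lower in ApoE4 mice than in WT, with medians from -0.032 to -0.019. *Rbfa*, which helps the small subunit mature, was above WT in all DM and all APP-TKI libraries, at 0.14 (SE 0.068) in both. It was the only 1 of the 24 wholly above WT in either mutant (background 7.29% in DM and 4.71% in APP-TKI mice). Wholly below WT were 1 of the 24 in DM (background 3.14%) and 4 in APP-TKI mice (background 3.56%). *Rpusd4*, which modifies the large ribosomal RNA, was at -0.30 (SE 0.14) in APP-TKI mice, and *Fastkd2*, which acts in RNA granules, at -0.16 (SE 0.062) in ApoE4 mice. *Malsu1*, which keeps the subunits apart during assembly, was at 0.17 (SE 0.091) in DM against APP-TKI mice, and the methyltransferase gene *Nsun4* had a difference of effects of 0.39 (SE 0.15).

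Translation factors and genes that act with them (13), tRNA synthetases (17) and regulators of mitochondrial biogenesis (11) had medians between -0.039 and 0.024 in every comparison. In the first of these lists the smallest p was that of *Tsfm* in DM mice and of *Taco1* in APP-TKI mice, at -0.13 and -0.20. It was that of *Oxa1l* in DM against APP-TKI mice and of *Gfm1* in ApoE4 mice, at 0.093 and -0.085. For synthetases the genes with the smallest p, in the same order, were *Rars2* at 0.12, *Yars2* at 0.19, *Lars2* at 0.22 and *Fars2* at -0.16. For regulators they were *Ppargc1a* at 0.083, *Esrra* at -0.071, *Tfb2m* at 0.086 and *Nrf1* at 0.10. *Gfm1* led the first list and *Tfb2m* the regulators in the difference of effects, both at 0.17. None passed the test over all genes.

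The 13 proteins encoded by mitochondrial DNA, the products of this ribosome, summed to 35465 to 43196 CPM per library. Of these, 11 were lower in APP-TKI mice (median -0.099), and *mt-Nd6*, a subunit of complex I, had the smallest p, at -0.31 (SE 0.089, edgeR adjusted p = 0.9998). In ApoE4 mice 8 of 13 were higher, with a median of 0.0026, and *mt-Co1* was at -0.051. In DM mice 10 of 13 were lower than in WT (median -0.047) and 10 of 13 were higher than in APP-TKI mice (median 0.045). The difference of effects was positive for 11 of 13 (median 0.046). Of all tested genes, 44.5% were lower in APP-TKI, 54.1% in ApoE4 and 45.1% in DM mice than in WT, and 49.6% in DM than in APP-TKI mice. *mt-Nd6* was also first in DM against WT mice, at -0.15 (SE 0.089), and *mt-Atp6* was first in DM against APP-TKI mice, at 0.43 (SE 0.18), and in the difference of effects, at 0.41 (SE 0.25). These libraries were enriched for polyadenylated RNA, and *mt-Nd6* is known as the mitochondrial mRNA that lacks a poly(A) tail.

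The medians of 2 other large gene groups are given for comparison. Nuclear genes of the respiratory chain (79 tested) had medians of 0.066 in DM, -0.081 in APP-TKI, 0.11 in DM against APP-TKI and -0.091 in ApoE4 mice, and 0.22 for the difference of effects. Cytosolic ribosomal proteins (79 tested) had 0.048, -0.043, 0.074, -0.050 and 0.13. The mitoribosomal genes were at 0.0050, -0.043, 0.044, -0.059 and 0.11. Their medians were smaller in size than those of the respiratory chain in every comparison. In DM against WT mice the mitoribosomal genes split 42 to 35 (45.5% lower, against 45.1% of all genes), while 68 of 79 respiratory chain genes and 65 of 79 cytosolic ribosomal protein genes were higher. In DM against APP-TKI mice 75 of 79 respiratory chain genes were higher, with 25 at an unadjusted p under 0.05. Among the mitoribosomal genes it was 64 of 77, with 6 at that threshold, and the share over all genes was 2.83%. None of the 3 groups had a gene that passed over all genes, and the comparisons share libraries, so their likeness is a description of these libraries.

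**Figure D5:**
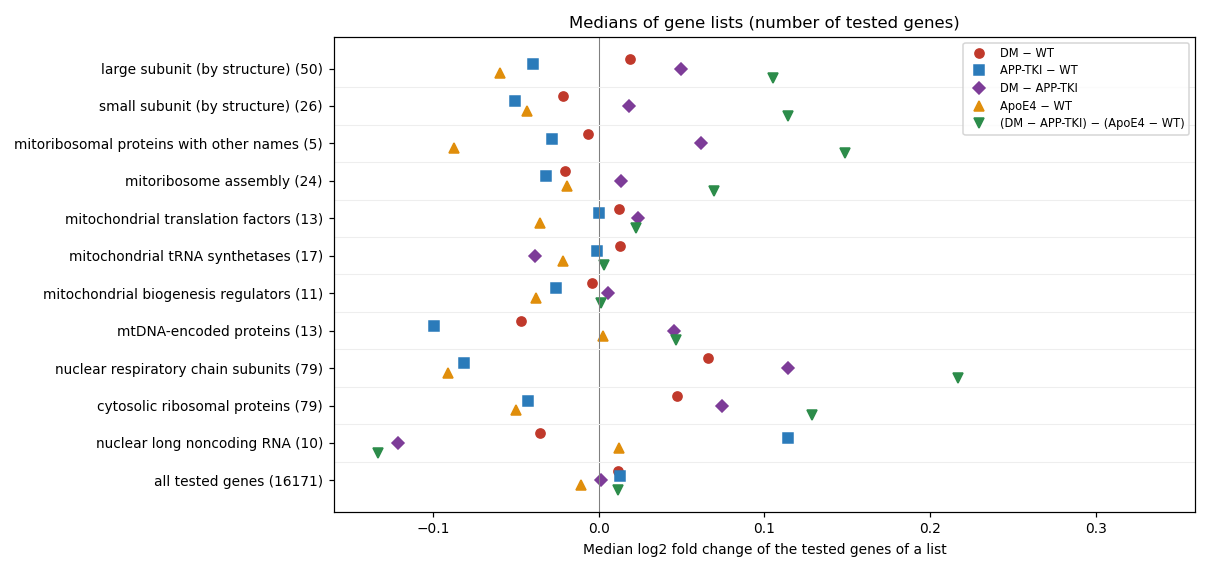
Median log2 fold change of the tested genes of each list (number in brackets) in the 5 comparisons, as symbols of different shape. Medians of both mitoribosomal subunits in APP-TKI (-0.040 and -0.051) and ApoE4 mice (-0.060 and -0.043) lie left of 0, next to those of the respiratory chain (-0.081 and -0.091) and of cytosolic ribosomal proteins (-0.043 and -0.050), while nuclear noncoding RNAs lie on the other side in APP-TKI mice (0.11).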

How the data were processed

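Whole hippocampi of female mice were sequenced in 15 directional libraries of polyadenylated RNA, 3 in each of 5 groups. The deposited file holds raw read counts per gene: per the submitters' processing notes and methods, the authors trimmed reads with Trimmomatic 0.39, aligned them with STAR 2.7.1a to a mouse annotation to which human APOE RNA was added, and counted with HTSeq 0.11.2. Mouse and human Apoe share a row, so that it does not check the genotype, and the level of App does not check point mutations. Of 55471 rows, 55230 matched the annotation used here by gene ID and 241 did not. It gave lengths, positions and overlaps on GRCm38 and may be of another release than the authors' own. Total counts were 32754717 to 44630808 per library.

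Genes above 1 CPM in at least 3 of 15 libraries were tested (16171) with edgeR 4.0.16 in R 4.3.3, by quasi-likelihood F-tests after upper quartile scaling, within each batch, and over all 15 libraries for the difference of effects. Benjamini-Hochberg adjustment was over all tested genes, with a threshold of 0.1. CPM levels were computed with these scaled library sizes, the filter used unscaled totals, and log2 levels used log2(CPM + 0.5). The procedure was also run on simulated data, and the outcome of that run is not given here. No statement on genes that did not pass rests on that run. Deviations of DM and WT libraries from the group means correlated at r = 0.510, 0.241 and 0.346 for equal replicate numbers 1 to 3. For unequal numbers r was -0.388 to 0.167. Deviations from a group's own mean cancel within the group, so these values are not independent of those for equal numbers. No label says what a number marks, so a pairing was not established. The replicate number as a block changed no call of a mitoribosomal gene. Alternatives were DESeq2 1.42.0, edgeR's robust likelihood ratio test, other scalings and filters, a block, a covariate and the removal of libraries.

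The genes, lists and tests were chosen with earlier results of these data known. Named were, in each comparison, the 4 genes with the smallest p in each direction, genes apart from WT in both mutants of batch 1, those within 10 Mb of App or Apoe, the 5 highest and 5 lowest levels, the S18 paralogs, Mrps30 and Mrps36, and the gene with the smallest p in each related list, of which 1 is not reported here. Mrpl22, Mrpl46, Mrpl57, Mrpl55 and Mrpl52 were named after their values were seen.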

Additional observations from a re-analysis of the deposited data

How the results depend on the processing

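No mitoribosomal gene passed the test in any of 110 alternatives over the 5 comparisons or in 4 added after seeing the data, although alternatives called up to 393 of all genes (the robust likelihood ratio test called 136, 50, 53, 125 and 121 and DESeq2 50, 25, 16, 48 and 26 in the 5 comparisons in the order of the report). Among the alternatives, a stricter threshold on the adjusted p and the restriction to genes without exon overlap reused the main fit. Neither could add a call, and the stricter threshold left the medians as they were. The median over the 77 genes in DM against WT mice, near 0, kept its sign in 9 of 14 alternatives and in 8 of 9 fits without a single library. In the other comparisons it kept its sign in all of them but 1 in ApoE4 mice, and for the difference of effects it was 0.068 without ApoE4 replicate 3 and up to 0.13 without another library. *Mrps6* in DM against APP-TKI mice went from 0.14 to 0.39 without the 4 libraries rich in nuclear noncoding RNA. Without the 3 libraries rich in choroid plexus or striatum markers, chosen after seeing the data, ApoE4 against WT mice gave a median of 0.00018, 49.4% of the genes lower, *Mrpl39* at 0.030 and *Mrps6* at 0.046.

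In DM against APP-TKI mice the share of genes lower was 28.6% with the nuclear RNA share as a covariate, 35.1% without the 4 libraries rich in that RNA, and 14.3% to 31.2% when single libraries were left out (29.9% without APP-TKI replicate 2, 31.2% without DM replicate 2, 26.0% without DM replicate 3). For the difference of effects it was 14.3% with DESeq2, with median-of-ratios scaling and with no filter, and 7.79% without ApoE4 replicate 2 to 20.8% without APP-TKI replicate 2 (16.9% without DM replicate 2, 14.3% without DM replicate 3 or APP-TKI replicate 3). The causes were not tested.

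Among named genes, signs turned only for values within a standard error of 0. In DM against APP-TKI mice *Mrps12* was at -0.019 with the covariate, and *Mrps34* at 0.10 and *Mrpl39* at -0.029 without the 4 libraries. In the difference of effects *Mrps10* was at 0.00013 with the covariate. Leaving out single libraries gave -0.069 to 0.038 for *Mrpl39* and -0.094 to 0.021 for *Mrps12* in DM against WT mice, -0.11 to 0.0043 for *Mrps12* in APP-TKI mice, -0.15 to 0.0095 for *Mrps34*, -0.091 to 0.0030 for *Mrps15* and -0.032 to 0.060 for *Mrps12* in DM against APP-TKI mice, and -0.11 to 0.036 for *Mrps6* in ApoE4 mice. In the difference of effects it gave -0.069 to 0.0023 for *Mrps26*, -0.13 to 0.034 for *Mrps10* and -0.069 to 0.0076 for *Mrps2*.

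With the replicate block the medians were 0.0061, -0.043, 0.044, -0.058 and 0.11. At an unadjusted p under 0.05, edgeR then had 5 genes lower in APP-TKI mice and 8 higher in DM against APP-TKI mice, while all genes at that threshold in either direction went from 576 to 871 and from 611 to 993, and it called 9 of all genes in APP-TKI mice in place of 1. Outside DM against WT mice r for equal numbers was of both signs (0.216, -0.349 and 0.270 for APP-TKI against WT, 0.233, -0.194 and 0.260 for DM against APP-TKI and -0.313, 0.0946 and 0.0401 for ApoE4 against WT). Fits that left 1 library in a group took its spread from the other groups. With 3 libraries a group, differences of the size seen here, mostly under 0.3 on the log2 scale, were near the standard errors of single genes.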
